A study of Rattus norvegicus with 6 samples.

Results

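GABA-A receptors are the chloride channels through which GABA, the main inhibitory transmitter of the brain, acts within milliseconds. Described here are 7 of their subunit genes in the rat amygdala, namely Gabrb1 and Gabrb2 (beta1 and beta2), Gabrg1 and Gabrg3 (gamma1 and gamma3), Gabrd (delta), Gabre (epsilon) and Gabrq (theta), out of 38445 genes counted. The genes were chosen by symbol, matched through NCBI gene identifiers, and all 7 were found and passed the filter on low counts that 18141 genes passed. RNA-seq was performed on the amygdala of adult male Sprague Dawley rats killed 1 h after an intraperitoneal injection of either saline (the control group) or 1 g/kg ethanol. Each group had 6 rats, and RNA pooled from 2 rats made 1 library, so that n = 3 libraries per group. The spread within a group is therefore the spread between pools of animals, and differences between single rats cannot be seen.

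A GABA-A receptor is a ring of subunits that most often holds alpha and beta subunits together with a gamma or a delta subunit. GABA binds between beta and alpha subunits, benzodiazepines bind between alpha and gamma subunits, and gamma subunits help to hold receptors at synapses. Receptors with delta lie mostly outside synapses, carry a tonic current, respond strongly to neurosteroids, and have long been discussed as targets of low ethanol concentrations. Epsilon and theta are rarer subunits, best known from hypothalamic and monoaminergic cell groups. In the amygdala, GABA-A receptors restrain the projection neurons of the basolateral nuclei and shape the output of the central nucleus, and drugs that enhance them reduce anxiety.

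Assigned reads ranged from 62576504 to 70755739 per library, and the totals of the groups overlapped. Levels are given as CPM, the count of a gene relative to the scaled library total, after TMM normalization with factors from 0.976 to 1.01, and 3 counts correspond to 0.0422 to 0.0473 CPM, a floor that covers counting error only. Genes that amygdala neurons express were present in each library. Slc17a7, the vesicular glutamate transporter of pallial neurons in general, was between 413 and 879 CPM. Prkcd, a kinase found in central amygdala neurons, was between 20.7 and 24.5 CPM. The libraries were not uniform in their makeup. The summed level of 10 choroid plexus markers was 796 to 1499 CPM in the controls and 101 to 739 CPM after ethanol. The log2 fold change was below 0 for each of the 9 markers tested, and none of the 10 was at 0 counts throughout. Of the 9, 4 lay wholly lower after ethanol, an arrangement found for 5.19% of all genes. Among them Ttr made up most of the sum in the controls (461 to 995 CPM). In ethanol libraries 1 and 2 Ttr was at 5.42 and 4.34 CPM, and Enpp2 made up most of the sum (89.1 and 114 CPM). The summed level of 8 hypothalamic markers ran from 14.7 to 115 CPM in the controls and from 17.3 to 335 CPM after ethanol, with the highest value in ethanol library 3.

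For 6 of the 7 subunit genes the ethanol libraries overlapped the control libraries, and the delta subunit gene was the exception, with higher values in each ethanol library. By the quasi-likelihood test of edgeR, with p values adjusted after Benjamini and Hochberg over all genes tested, 0 of the 7 genes had an adjusted p below the study's threshold of 0.2. No gene of the whole table had one (0% of 18141). At an unadjusted p below 0.05 stood 1 of the 7 genes, Gabrd, against 4.15% of all genes in either direction and 1.57% in the direction of higher levels after ethanol. Gabrd was also the only one of the 7 for which the ethanol libraries all lay above the control libraries, an arrangement found for 3.66% of all genes, and none of the 7 lay wholly below, an arrangement found for 5.19%. DESeq2, edgeR's likelihood ratio test and limma-voom also called 0 of the 7 genes, while over all genes they called 75, 77 and 0.

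**Figure D1:**
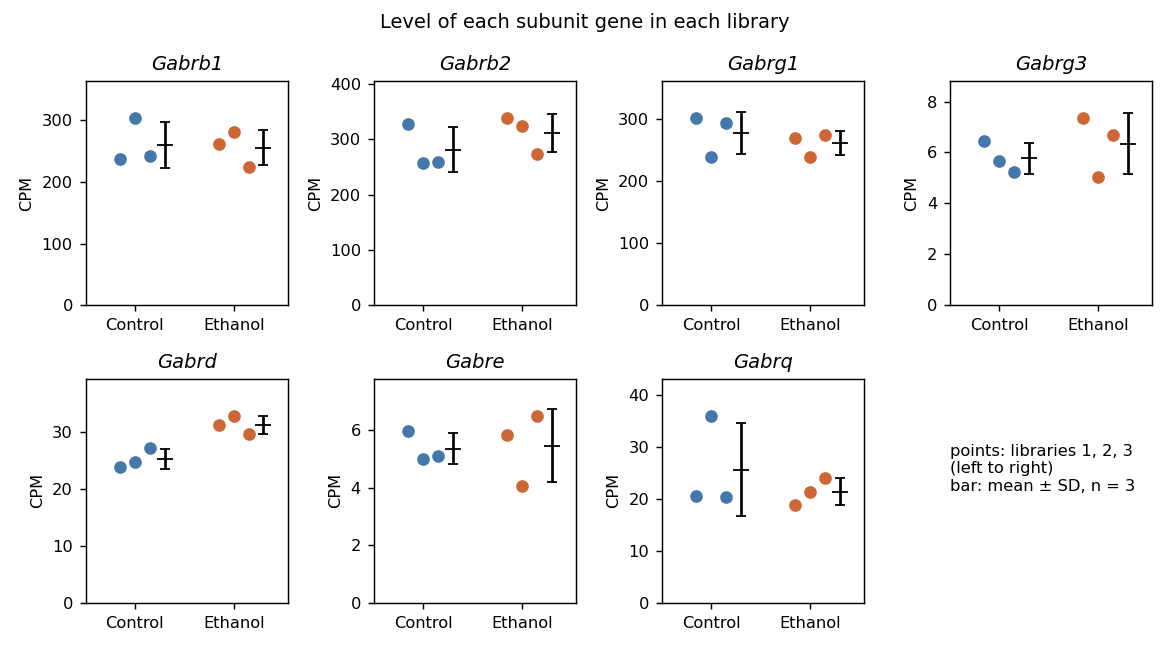
CPM of each subunit gene in each library (y axes start at 0), with control libraries in blue, ethanol libraries in orange, and the mean ± SD of each group (n = 3) as a bar. Only Gabrd shows groups that do not overlap, and control library 2 stands above the other libraries for Gabrq at 36.0 CPM.

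Gabrd encodes the delta subunit and occupies positions 172797478 to 172809374 of chromosome 5 (Rnor_6.0, minus strand), with 9 exonic blocks that together measure 1786 bp. Its level was 23.9, 24.7 and 27.2 CPM in control libraries 1, 2 and 3 and 31.3, 32.8 and 29.6 CPM in ethanol libraries 1, 2 and 3. The lowest ethanol library thus stood above the highest control library, and the counts behind these values ran from 1563 to 2113. The control mean was 25.3 ± 1.70 CPM (SD, n = 3). The ethanol mean was 31.3 CPM, also with n = 3, which gave a log2 fold change of 0.31 (SE 0.07, 95% interval 0.13 to 0.48), or 23.7% higher. The unadjusted p was 0.0037 and the adjusted p was 0.884 with edgeR's quasi-likelihood test. A 2-sided exact permutation test on log2 CPM gave p = 0.1, the smallest that 3 libraries against 3 allow, while the other 6 genes had p from 0.3 to 1 in this exact test. When single libraries were left out, the log2 fold change stayed between 0.26 and 0.36, and in none of these fits did edgeR's adjusted p fall below 0.302. Among the 7 genes Gabrd had the smallest spread within groups, with a pooled SD of 0.09 on the log2 scale against 0.15 to 0.35 for the others.

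Between the groups, the choroid plexus marker sum given above differed in the opposite direction to Gabrd, and its part in the Gabrd difference was not tested. The sum was 101 and 128 CPM in ethanol libraries 1 and 2 and 739 CPM in ethanol library 3, against 796 to 1499 CPM in the controls. Within the controls, it was 796, 1499 and 1161 CPM in libraries 1, 2 and 3, where Gabrd was at 23.9, 24.7 and 27.2 CPM. Dentate granule cells and striatal-type neurons are among those in which delta is known to be abundant, and their marker sums overlapped between the groups. So did the sum of 5 thalamic neuron markers, at 62.0 to 74.9 CPM in the controls and 56.5 to 68.7 CPM after ethanol. Of the 4 thalamic markers tested, 1 had a log2 fold change above 0 and 3 below 0. The 4 dentate granule cell markers summed to 33.4 to 60.6 CPM in the controls and 31.9 to 52.4 CPM after ethanol. The 14 markers of central amygdala and striatal-type GABA neurons summed to 466 to 726 CPM and 535 to 739 CPM. Of these 14, 10 had a log2 fold change above 0 and 4 below 0, with a median of 0.18. Over all genes tested, 9539 of 18141 were above 0. Each of the 3 dentate markers tested had a log2 fold change below 0. Dsp, a desmosome gene at 0.749 CPM in the controls and 0.486 CPM after ethanol (30 to 59 counts), was lower in each ethanol library (edgeR's unadjusted p = 0.0241, adjusted p = 1.0). Over all genes, 5.19% lay wholly lower after ethanol. The other dentate markers tested overlapped between the groups. Tdo2, below the filter at 1 to 5 counts, was higher in each ethanol library. In bulk tissue, more cells that express a gene and more RNA per cell cannot be told apart. Without ethanol library 3, in which the choroid plexus sum was closest to the controls, the log2 fold change of Gabrd was 0.34. Without control library 2, in which the sum was highest, it was 0.29. Ethanol library 3 also held the lowest Gabrd of its group (29.6 CPM), so leaving it out raises the fold change in any case. These values do not test the part of choroid plexus.

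The promoter of Gabrd is shown because this was the subunit gene with separated groups. The sequence comes from RefSeq on build GRCr8, chr5:171252660-171252959, minus strand, and runs from 250 bases before the annotated start through its first 50 bases. Capitals mark each GC box (letters GGGCGG, searched on both strands, overlapping matches joined).

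Gabrd promoter: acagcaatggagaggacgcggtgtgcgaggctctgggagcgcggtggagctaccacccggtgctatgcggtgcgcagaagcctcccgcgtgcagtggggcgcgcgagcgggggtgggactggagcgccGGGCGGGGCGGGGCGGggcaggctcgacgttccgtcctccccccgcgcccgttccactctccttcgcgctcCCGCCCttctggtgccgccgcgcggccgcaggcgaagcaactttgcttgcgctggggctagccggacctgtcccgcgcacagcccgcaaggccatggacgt

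GC boxes of this kind occurred in 34.9% of 27457 RefSeq rat promoters of the same length and in 4 of the 7 promoters of these genes (Gabrg3, Gabrd, Gabre and Gabrq). The Gabrd window held 73.7% G and C and 40 CpG dinucleotides, and 95.5% of promoters held less G and C. No TATA box (letters TATAAA, both strands, 14.3% of promoters) was present in the window of any of the 7 genes.

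Gabrb1 and Gabrb2 encode beta subunits, which form part of the GABA binding site and carry the anesthetic sites of the receptor. Gabrb1 lies on chromosome 14 from 38631192 to 39112598 on the minus strand and Gabrb2 on chromosome 10 from 27973694 to 28193072 on the plus strand (Rnor_6.0). Gabrb1 was measured at 237, 303 and 242 CPM in control libraries 1, 2 and 3 and at 261, 280 and 224 CPM in ethanol libraries 1, 2 and 3. Ethanol library 3 had the lowest value and control library 2 the highest, and the groups overlapped. The log2 fold change was -0.03 (SE 0.12, 95% interval -0.31 to 0.25, edgeR's adjusted p = 1.0), and it took the opposite sign without control library 2 (0.10) or without ethanol library 3 (0.06).

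Gabrb2 was at 328, 258 and 259 CPM in the controls and at 338, 323 and 273 CPM after ethanol, in library order 1, 2 and 3. Here control library 1 was as high as the upper ethanol libraries, so that the groups overlapped again. Controls averaged 281 ± 40.2 CPM (SD, n = 3) and ethanol libraries 311 ± 33.7 CPM (SD, n = 3), which gave a log2 fold change of 0.15 (SE 0.12, 95% interval -0.13 to 0.43, edgeR's adjusted p = 1.0). It was 0.26 without control library 1 (edgeR's unadjusted p = 0.0432, adjusted p = 1.0) and 0.09 without ethanol library 1. Intervals of this width leave room for a change of the beta2 transcript of up to 1.35-fold upward or to 0.911-fold of control.

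The beta genes did not move in parallel across the libraries. The ratio of Gabrb1 to Gabrb2, each in CPM per kilobase of exon (RPKM), was 0.392, 0.639 and 0.507 in control libraries 1, 2 and 3 and 0.42, 0.471 and 0.446 in ethanol libraries 1, 2 and 3. All the ethanol ratios lay within the range of the controls. The mean log2 ratio differed by -0.18 between ethanol and control (2-sided exact permutation test, p = 0.5, and 0.6 after Benjamini-Hochberg adjustment over 3 ratios). The size of this difference rested on single libraries, since it was -0.36 without control library 1 and -0.0032 without control library 2.

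The promoters of the beta genes are printed because they share more sequence with each other than any other pair of the 7. They come from RefSeq on build GRCr8, at chr14:36902844-36903143 (minus strand) for Gabrb1 and chr10:27439543-27439842 (plus strand) for Gabrb2. Capitals mark runs of at least 9 bases that both windows hold on the same strand.

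Gabrb1 promoter: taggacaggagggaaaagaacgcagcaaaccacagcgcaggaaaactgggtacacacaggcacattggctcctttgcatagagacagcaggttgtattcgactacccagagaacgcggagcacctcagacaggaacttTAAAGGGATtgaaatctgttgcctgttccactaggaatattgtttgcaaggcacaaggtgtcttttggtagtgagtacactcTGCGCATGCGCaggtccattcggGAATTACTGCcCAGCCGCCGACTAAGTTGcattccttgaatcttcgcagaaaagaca

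Gabrb2 promoter: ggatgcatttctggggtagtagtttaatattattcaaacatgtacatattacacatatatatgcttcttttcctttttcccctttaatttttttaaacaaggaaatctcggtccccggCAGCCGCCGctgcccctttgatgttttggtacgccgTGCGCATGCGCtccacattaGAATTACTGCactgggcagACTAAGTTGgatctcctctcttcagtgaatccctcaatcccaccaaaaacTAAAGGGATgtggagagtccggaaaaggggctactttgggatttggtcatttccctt

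The shared runs numbered 5 and covered 48 bases of the Gabrb1 window, whereas for the other 20 pairs the covered length was between 0 and 36 bases. The longest was TGCGCATGCGC, which holds the palindromic core recognized by the transcription factor NRF1 and starts 30 bases before the annotated start in Gabrb1 and 96 bases before it in Gabrb2. It occurred, on either strand, in 0.637% of the 27457 promoters. The runs GAATTACTGC (0.0437% of promoters) and ACTAAGTTG (0.117%) followed it in the same order in both genes, with start-to-start distances of 23 and 20 bases in Gabrb1 and of 20 and 19 bases in Gabrb2. CAGCCGCCG (1.16%) and TAAAGGGAT (0.204%) stood in a different order. These runs were found by comparing the windows with each other, and binding at them was not measured here.

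Gabrg1 and Gabrg3 encode gamma subunits that, next to the more widespread member of the class, are restricted to parts of the brain, and gamma1 is known from the amygdala and from glia. Gabrg1 lies on chromosome 14 from 39964502 to 40051306, on the plus strand, and Gabrg3 on chromosome 1 from 112158525 to 112812267, on the minus strand. Gabrg1 was at 302, 239 and 295 CPM in control libraries 1, 2 and 3 and at 270, 239 and 275 CPM in ethanol libraries 1, 2 and 3. The libraries numbered 2 were the lowest of each group, and every ethanol value but the lowest fell inside the control range. Its log2 fold change was -0.09 (SE 0.10, 95% interval -0.33 to 0.15, edgeR's adjusted p = 1.0), and it was -0.19 without control library 2 and -0.03 without ethanol library 2.

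Gabrg3 was far less abundant, at 6.44, 5.64 and 5.24 CPM in the controls and 7.34, 5.02 and 6.68 CPM after ethanol, from 323 to 471 counts per library. Ethanol libraries 1 and 3 were above all controls and ethanol library 2 was below them. The log2 fold change was 0.14 (SE 0.16, 95% interval -0.23 to 0.50, edgeR's adjusted p = 1.0), and it was 0.02 without ethanol library 1 and 0.28 without ethanol library 2. Per kilobase of exon, Gabrg1 exceeded Gabrg3 20.6 to 27.4 times in the controls and 17.9 to 23.2 times after ethanol. The mean log2 ratio differed by -0.21 (2-sided exact permutation test, p = 0.3, adjusted p = 0.6 over 3 ratios), and by -0.10 without control library 3 and -0.31 without ethanol library 2. Luzp2, on the opposite strand, overlaps the span of Gabrg3 but shares 0 exonic bases with it.

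Gabre and Gabrq encode epsilon, which makes receptors insensitive to benzodiazepines, and theta. Both lie on chromosome X, Gabre from 152220180 to 152237347 on the minus strand and Gabrq from 152852230 to 152869012 on the plus strand. Gabre was measured at 5.98, 4.98 and 5.11 CPM in control libraries 1, 2 and 3 and at 5.84, 4.06 and 6.49 CPM in ethanol libraries 1, 2 and 3. The ethanol libraries spanned the whole range of the controls and more on both sides. The log2 fold change was 0.03 (SE 0.18, 95% interval -0.39 to 0.45, edgeR's adjusted p = 1.0), and its sign depended on single libraries, with -0.11 without ethanol library 3 and 0.20 without ethanol library 2.

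Gabrq was at 20.6, 36.0 and 20.3 CPM in the controls and at 18.9, 21.4 and 24.0 CPM after ethanol. Control library 2 held 2555 counts and stood well above the other libraries, which held 1212 to 1671. This library set the direction of the comparison. The log2 fold change was -0.26 (SE 0.22, 95% interval -0.77 to 0.25, edgeR's adjusted p = 1.0) with all libraries and 0.07 without control library 2. The ratio of Gabre to Gabrq per kilobase was 0.594, 0.283 and 0.513 in the controls and 0.632, 0.387 and 0.553 after ethanol, a difference of 0.22 in the mean log2 ratio (2-sided exact permutation test, p = 0.6, adjusted p = 0.6 over 3 ratios). It was lowest in the libraries numbered 2 of each group. The sum of the 8 monoaminergic neuron markers was 3.38 to 4.97 CPM in the controls and 2.82 to 18.5 CPM after ethanol, and it was highest in ethanol library 2, where Gabre was lowest. Gabre was highest in ethanol library 3, which had the highest hypothalamic sum, whereas Gabrq was highest in control library 2, which had the lowest. The part of these cell groups in the values of Gabre and Gabrq was not tested.

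**Figure D2:**
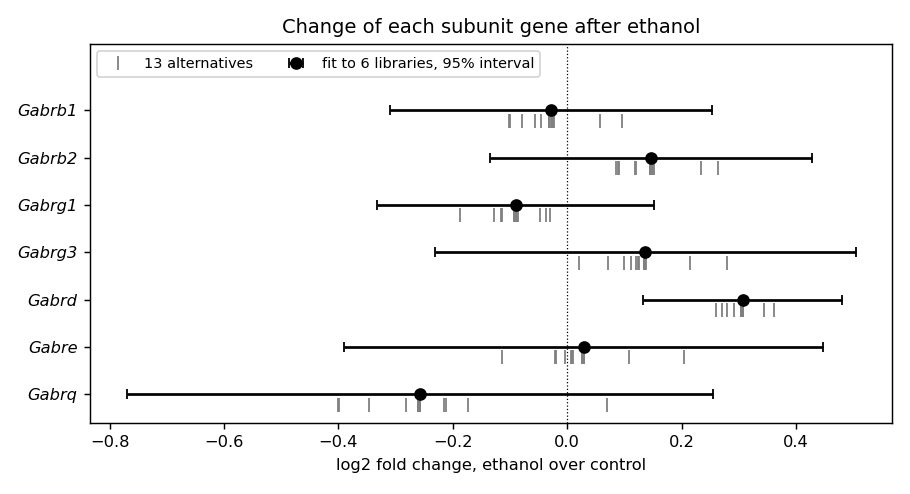
Log2 fold change of each subunit gene, ethanol over control, from edgeR's quasi-likelihood fit to 6 libraries (black points, with 95% intervals) and under 13 alternatives (grey ticks). The interval of Gabrd, 0.13 to 0.48, lies above 0 and its alternatives run from 0.26 to 0.36, while the intervals of the other 6 genes include 0.

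Levels were compared between genes per kilobase of exon. In RPKM over the 6 libraries the order was Gabrg1 (mean 67.2), Gabrb2 (38.6), Gabrb1 (18.2), Gabrd (15.8), Gabrq (3.84), Gabrg3 (3.10) and Gabre (1.81). Gabrg1 was above Gabrb2 and Gabrb2 above Gabrb1 in 6 of 6 libraries, and the ranges of these neighbours did not overlap. Gabrb1 and Gabrd overlapped over the 6 libraries, with Gabrb1 higher in 5 of 6 libraries and a ratio from 0.955 to 1.54. In the controls alone they did not overlap, with Gabrb1 at 16.7 to 21.4 RPKM and Gabrd at 13.4 to 15.2 RPKM. Gabrd was 2.36 to 5.68 times above Gabrq. Gabrq and Gabrg3 overlapped as well, with a ratio from 0.822 to 2.04, and Gabrg3 was above Gabre in 6 of 6 libraries.

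These lengths count every annotated exon of a gene, which makes 14166 bp for Gabrb1 against 7688 bp for Gabrb2 and 4021 bp for Gabrg1, so a gene with long exons that are seldom used is placed too low. By CPM alone, without length, 5 of the 7 genes kept their place, and the highest was Gabrb2. Of the summed RPKM of the 7 genes, Gabrg1 made up 40.4% to 49.9% in a library and Gabrb2 22.9% to 28.6%. Gabrd made up 8.56% to 10.4% in the controls and 11.2% to 12.5% after ethanol, which restates the Gabrd difference on a scale within the library. Gabre made up 0.919% to 1.48%.

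**Figure D3:**
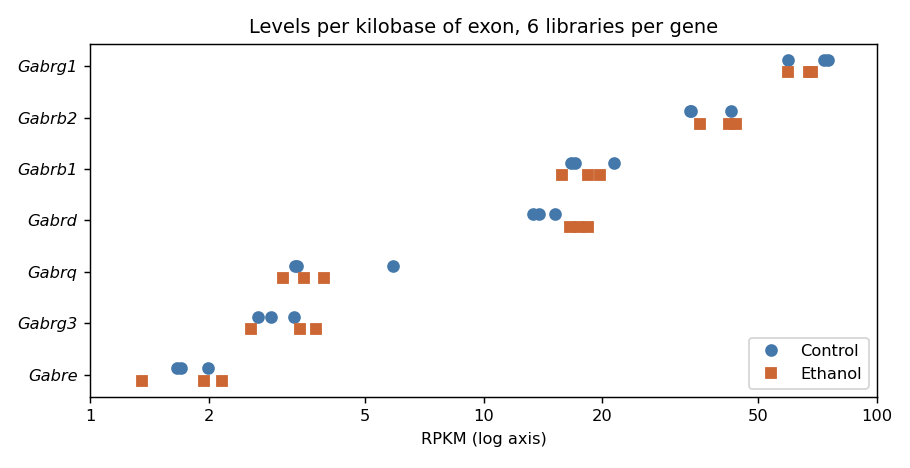
RPKM of the 7 subunit genes on a log axis, with control libraries as blue circles and ethanol libraries as orange squares. Gabrg1 is the highest at 59.5 to 75.0 RPKM and Gabre the lowest at 1.35 to 2.17 RPKM, and Gabrb1 overlaps Gabrd as Gabrq overlaps Gabrg3.

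GABA-A subunit genes lie in clusters, and the genes next to each member were measured too. On chromosome 14 Gabrb1 is followed by Gabra4, Gabra2 and Gabrg1, with 41.5 kb between Gabrb1 and Gabra4 and 163 kb between Gabra2 and Gabrg1. Gabra4 (alpha4, a usual partner of delta) was at 128 ± 0.783 CPM (SD, n = 3) in the controls and 141 ± 18.3 CPM (SD, n = 3) after ethanol, and its log2 fold change was 0.14 (edgeR's adjusted p = 1.0). Gabra2 was at 407 ± 52.4 CPM (SD, n = 3) and 407 ± 78.1 CPM (SD, n = 3). On chromosome 10 Gabrb2 lies 111 kb from Gabra6 (alpha6), which was at only 2.08 ± 0.569 CPM (SD, n = 3) in the controls.

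Gabrg3 lies 21.7 kb from Gabra5, which was at 133 ± 37.9 CPM (SD, n = 3) in the controls and 121 ± 25.0 CPM (SD, n = 3) after ethanol. On chromosome X Gabra3 stands between Gabre and Gabrq, at 128 ± 4.53 CPM (SD, n = 3) in the controls and 137 ± 22.2 CPM (SD, n = 3) after ethanol. Genes of the same cluster thus differed widely in level. Neighbours were sought only among entries with a symbol. Outside the family, the nearest were Commd8 at Gabrb1 (log2 fold change 0.02), Atp10b at Gabrb2 (0.22), and Magea4 (0 CPM in each library) and Magea10 (0.271 CPM in the controls) at Gabre. For Gabrg1, Gabrg3, Gabrd and Gabrq, the nearest such entries Rtraf-ps2, Clp1-ps1, Pigp-ps1, Snu13l1 and Magea10-ps1 had 0 CPM in each library. Rtraf-ps2 lies as far as 1330 kb from Gabrg1.

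The neighbour of Gabrd was the exception. Cfap74, a gene of the ciliary axoneme, begins 7.85 kb from Gabrd on the other strand. Controls averaged 11.98 ± 1.12 CPM (SD, n = 3) and ethanol libraries 9.54 ± 0.723 CPM (SD, n = 3), with a log2 fold change of -0.33 (SE 0.10, unadjusted p = 0.0133 and adjusted p = 1.0 with edgeR's quasi-likelihood test). Each ethanol library was below each control library, the opposite of Gabrd. Of 8 markers of ependyma and motile cilia, 5 were tested. The marker sum was 63.5 to 77.7 CPM in the controls and 48.6 to 66.9 CPM after ethanol. Each of the 5 had a log2 fold change below 0 (median -0.30). Like Cfap74, 2 of them were lower in each ethanol library, an arrangement found for 5.19% of all genes. The part of ependyma and cilia in the Cfap74 difference was not tested.

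The other genes of the receptor system gave 0 calls. Of 58 genes in 4 lists, 56 were tested, 0 had an adjusted p below 0.2 and 1, Prkcb, had an unadjusted p below 0.05 with edgeR's quasi-likelihood test, against 4.15% of all genes. Their median log2 fold change was 0.06, against 0.03 for the 7 genes and 0.01 for all genes tested. Among the other subunits, 8 of 10 were tested, 6 had a log2 fold change above 0 and the median was 0.11. Gabra2 (alpha2) and Gabra4 were among the most abundant.

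Proteins that anchor, chaperone or move the receptor numbered 26, all of them tested, with a median log2 fold change of 0.04. The most abundant were Kif5a, a kinesin motor (0.06), Nsf, an ATPase of membrane fusion (0.15), and Hap1, an adaptor that returns receptors to the membrane (-0.08). Groups did not overlap for Trak1, a transport adaptor (138 ± 3.39 CPM in the controls and 147 ± 5.03 CPM after ethanol, SD, n = 3), or for Dmd, which encodes dystrophin (108 ± 1.28 and 104 ± 4.07 CPM, SD, n = 3). Over all genes 3.66% lay wholly higher and 5.19% wholly lower after ethanol. Both genes were named after their values were seen, and their unadjusted p values were 0.176 and 0.341 with edgeR's quasi-likelihood test.

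The 9 genes of GABA supply and chloride balance had a median of 0.03. Slc12a5, the neuronal chloride exporter KCC2, had a log2 fold change of 0.13 and Gad1, a GABA-synthesizing enzyme, one of -0.08. Of the 13 genes for kinases, phosphatases and an anchoring protein that act on beta and gamma subunits, 12 had a log2 fold change above 0, with a median of 0.10, and none was called. Over all genes tested, 9539 of 18141 had a log2 fold change above 0.

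Prkcb, a protein kinase C isoform, was at 165, 144 and 146 CPM in control libraries 1, 2 and 3 and at 212, 176 and 162 CPM in ethanol libraries 1, 2 and 3. Control library 1 lay above ethanol library 3, so the groups overlapped. Its log2 fold change was 0.27 (SE 0.11, unadjusted p = 0.035 and adjusted p = 1.0 with edgeR's quasi-likelihood test). The most abundant of this list, Camk2a, Camk2b and Ppp3ca, had log2 fold changes of 0.16, 0.10 and 0.09.

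**Figure D4:**
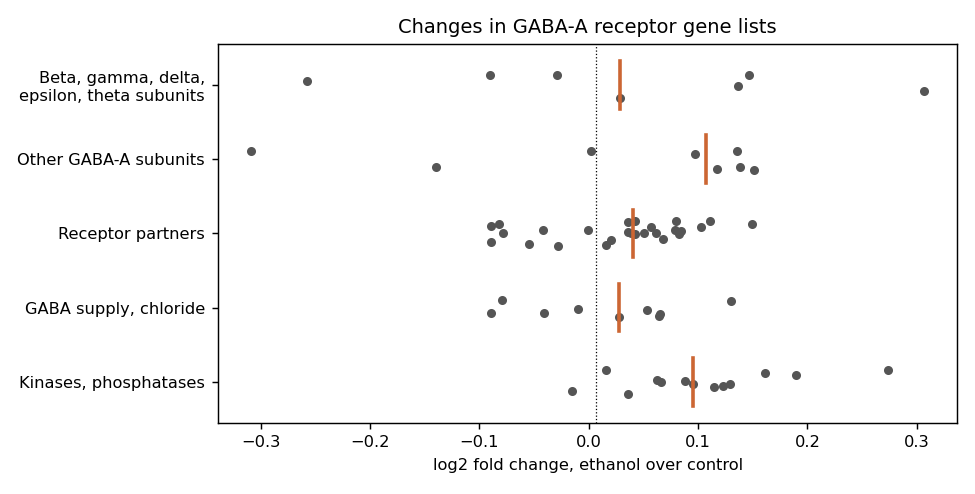
Log2 fold change, ethanol over control, of each tested gene (points, spread vertically at random) in 5 lists, with the list's median as an orange line and the median of all 18141 genes tested as a dotted line. Gabrd at 0.31 and Prkcb at 0.27 stand farthest to the right, Gabra6 at -0.31 farthest to the left, and the medians of the lists lie between 0.03 and 0.11.

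For 6 of the 7 genes, all but Gabrd, the log2 levels spanned more within a group than the difference between the groups. Gabrb1 was highest in control library 2 and ethanol library 2, the libraries with the highest sums of 9 markers of basolateral and cortical glutamatergic neurons (1156 and 1313 CPM, against 728 to 1062 CPM in the others) and of the dentate granule cell markers. Gabrg1 was lowest in these libraries. Gabrg3 and Gabre were highest in control library 1 and in ethanol libraries 1 and 3. These libraries also held the highest sums of central amygdala and striatal-type markers (702 to 739 CPM, against 466 to 558 CPM in the others). Not every marker of that list had this order. Penk, its most abundant marker, did (193 to 257 CPM, against 144 to 177 CPM in the others). Prkcd did not, with its highest value in control library 3 (24.5 CPM). The high value of Gabrq was confined to control library 2, where the oligodendrocyte marker sum was lowest at 3413 CPM (4212 to 9501 CPM in the others) and the choroid plexus sum highest. The part of tissue makeup in these library values was not tested.

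**Figure D5:**
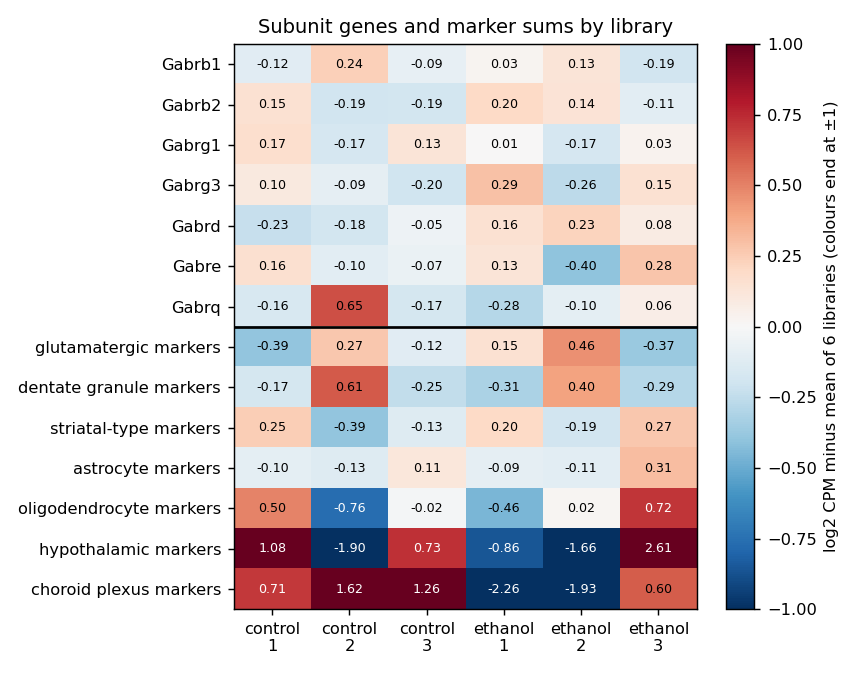
Each subunit gene, and below the line the summed level of each marker list, by library, as log2 CPM minus its mean over the 6 libraries (red above, blue below, colours end at 1 in either direction). Gabrd is below its mean in the 3 control libraries and above it in the 3 ethanol libraries, and the choroid plexus markers are at 1.62 in control library 2 and -2.26 in ethanol library 1.

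For each of the 7 genes, the gene with the most similar pattern was taken as the one with the highest Pearson r of log2 CPM over the 6 libraries among 11732 tested genes with a symbol and at least 5 CPM. The genes found were Abitram for Gabrb1 (r = 0.999), Rbm11 for Gabrb2 (0.995), Tomm7 for Gabrg1 (0.998), Npsr1 for Gabrg3 (0.995), Eif4h for Gabrd (0.982), Peg10 for Gabre (0.993) and Edc4 for Gabrq (0.984). The values are descriptions of these 6 libraries, which share their dissection, depth and group structure between all genes. Each r is the highest of 11732 candidates over only 6 libraries, and values near 1 can arise from this choice alone. A high r did not require a change of like size: Eif4h went from 346 CPM in control library 1 to 360 CPM in ethanol library 2 while Gabrd went from 23.9 to 32.8 CPM, whereas Peg10 (19.5 to 31.8 CPM over the libraries) and Gabre (4.06 to 6.49 CPM) spanned similar folds.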

How the data were processed

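RNA-seq was carried out on 6 libraries of amygdala RNA (3 control, 3 ethanol). The authors deposited raw counts per gene, made from quality-trimmed single-end reads of 100 nt with featureCounts 1.6.3 in its reverse-stranded setting over the exons of the Rnor_6.0 annotation, and the submitters' processing notes also name STAR 2.7.0f. The recorded command sets no option for multi-mapping reads or for reads shared by genes, which that version leaves uncounted by default, and none of the 7 genes shares exonic bases with another gene on either strand. Symbols were matched to 29322 of 38445 identifiers. Counts were analyzed with edgeR 4.0.16 in R 4.3.3 after filterByExpr (minimum 10 counts, 15 in total) and TMM scaling, with the quasi-likelihood F test, Benjamini-Hochberg adjustment over 18141 genes and a threshold of 0.2. The standard error is the absolute log2 fold change over the square root of F, and a prior count of 2 was added for log2 CPM. The test was checked on simulated counts. Nothing ties same-numbered libraries to the same rats, so the fit has no replicate block. At 62576504 or more assigned reads per library, precision is set by the 3 libraries per group. Alternatives were other scalings, no filter, other tests and leaving out each library.

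The 7 genes and all gene lists were chosen with earlier results of these data known. Named were the 7 genes, their nearest neighbours and subunit genes within 2 Mb, the gene most like each in pattern, and, of the pathway lists, the 3 most abundant genes of each and those with an unadjusted p below 0.05, except genes that are not reported here. Outside this rule, Trak1, Dmd, Dsp, Tdo2, Penk, Ttr, Enpp2 and the pi and rho subunit genes were named after their values were seen. Of the marker lists, Npy and Rsph4a had 0 counts in each library and Ccdc153 was not matched. Promoter sequences come from a RefSeq table on GRCr8, and all 7 genes were matched in it. Its coordinates were not converted.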

Additional observations from a re-analysis of the deposited data

How the results depend on the processing

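None of the 7 genes and none of the 56 other receptor genes tested was called under any of the 13 alternatives. Over all genes, 0 were called by the main test, against 77 with the likelihood ratio test of edgeR, 75 by DESeq2, and 0 to 83 with each library left out in turn (4 without ethanol replicate 1, 83 without ethanol replicate 3). Gabrd kept a positive log2 fold change in all 13 alternatives, from 0.26 to 0.36, with its smallest adjusted p, 0.245, from DESeq2, and Gabrb2, Gabrg1 and Gabrg3 also kept their signs. With each library left out in turn, Gabrb2 ran from 0.09 to 0.26, Gabrg1 from -0.19 to -0.03, Gabrg3 from 0.02 to 0.28, Gabrb1 from -0.10 to 0.10, Gabre from -0.11 to 0.20 and Gabrq from -0.40 to 0.07. Gabrb1 turned positive without control replicate 2 (0.095) and without ethanol replicate 3 (0.057). Gabre turned negative without control replicate 2 (-0.020), control replicate 3 (-0.0034), ethanol replicate 1 (-0.021) or ethanol replicate 3 (-0.11). Gabrq turned positive without control replicate 2 (0.069). Each of these fits had fewer samples, and none called the gene. The log2 ratio of Gabre to Gabrq differed between groups by -0.11 (without control replicate 2) to 0.43 with each library left out. Scaling by library size only shifted the median log2 fold change of all genes from 0.01 to -0.02, and Gabrd was then at 0.28. Without length scaling, 5 of the 7 genes kept their place in the order of levels. Scaling by transcript length was not run, because the reference table gives gene spans. With the replicate number as a block, 0 genes were called, Gabrd had a log2 fold change of 0.31 (adjusted p = 0.662 from edgeR) and 1015 genes had an unadjusted p below 0.05, against 752 without it. Deviations of same-numbered libraries from their group means correlated by 0.0264, 0.388 and 0.211 over 14241 genes, and control 1 correlated with ethanol 3 by 0.305, more than with ethanol 1, so the numbers were not taken to pair the libraries.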

Other observations

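The promoter windows of the 7 genes fell into separate ranges of base composition. Gabrb2, Gabrg1 and Gabrb1 held 44.0%, 48.7% and 49.3% G and C, below the median of 52.3% over all 27457 promoters, with 6 to 11 CpG dinucleotides each. Gabre, Gabrq, Gabrd and Gabrg3 held 67.3% to 76.7% with 22 to 40 CpG dinucleotides. The latter are also the genes with GC boxes, whose letters are all G and C, so these traits are not independent of each other. A CCAAT box (letters CCAAT, either strand, 37.7% of promoters) was present in the windows of Gabrb1, Gabrg1 and Gabrq.

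Among the rarer subunits outside the 7 genes, Gabrp (pi) had 0 to 2 counts per library and Gabrr3 (rho3) 7 to 27, and both fell below the filter. Gabrr1 and Gabrr2, which encode the other rho subunits, were tested, with log2 fold changes of 0.14 and 0.15 (edgeR's adjusted p = 1.0 for both).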
